A study of Homo sapiens with 3 samples.

Results

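The heat shock chaperones described here are 10 genes, HSPA1A, HSPA1B, HSPA8, HSPB1, HSPH1, HSP90AA1, HSPD1, HSPE1, DNAJB1, and BAG3, out of 43317 distinct names of transcript features on the array. They were chosen by name, and every probe that carries one of these names was read, which gave 16 probes. There were 6 genes with a single probe, while HSPE1 and HSPH1 had 2 probes each and HSPB1 and HSP90AA1 had 3. RNA came from THP-1, a human monocytic leukemia line, in 3 conditions with 1 one-color array each. In all of them, the cells had been turned into macrophage-like cells with PMA (100 ng/mL for 24 to 36 h) and rested overnight, and the labels place every array at 4 h. The Ctrl array held cells without further treatment. The IMQ array held cells given imiquimod (IMQ), a small-molecule ligand of Toll-like receptors. The third array held cells given IMQ after pretreatment with DMD, a benzene diol with methoxy and methyl groups that occurs in the fungus Antrodia cinnamomea. Its label reads IMQ+X, and X was taken to be DMD because the title and the treatment notes name no other compound beside IMQ. A single line stood in for macrophages, and no array held DMD alone, so a response to DMD without IMQ was not measured. With 1 array per condition there was no replicate check and no test, and each difference compares arrays rather than conditions.

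Heat shock chaperones bind unfolded proteins and keep them from aggregating, and many are transcribed in bursts when the heat shock factor HSF1 is freed by misfolded protein. HSP70 proteins work in cycles of ATP binding, with J-domain proteins bringing substrates and nucleotide exchange factors releasing them. HSP90 completes the folding of kinases and receptors, small heat shock proteins hold unfolded proteins without ATP, and the HSP60 and HSP10 pair folds proteins inside mitochondria. In macrophages these proteins accompany inflammatory activation, and some of their clients are kinases of the Toll-like receptor pathway.

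Each of the 16 probes exceeded background clearly on every array, and none of their spots was saturated. The cell identity given by the labels was checked with macrophage genes. All 8 macrophage markers with a probe were well above background on every array, among them CSF1R, the receptor of macrophage colony-stimulating factor (log2 17.78 on Ctrl, 17.40 on IMQ, and 17.23 on IMQ+DMD), and SPI1, the lineage transcription factor (14.14, 14.19, and 14.24). CD14, a co-receptor for bacterial lipopolysaccharide, measured 14.42, 13.71, and 13.20, and its level on the IMQ+DMD array was 2.32-fold below Ctrl. In the same comparison the high-affinity Fc receptor gene FCGR1A, a dim probe at 6.28, 5.54, and 5.14, was 2.21-fold lower, or 1.52-fold with normexp. The median difference of the 8 markers from Ctrl was -0.34 on the IMQ array (-0.15 with the 75th percentile to -0.75 with spike-in scaling). On the IMQ+DMD array it was -0.61, with 2 of 8 higher and 2 past 2-fold lower, and it was below 0 under all 9 alternatives. Between IMQ+DMD and IMQ it was -0.14, or 0.01 with spike-in scaling, and whether this shift had a part in the chaperone differences was not tested. Of 12 markers of other cell types, EPCAM, the epithelial adhesion molecule, was below background on all arrays, and 9 were above it on all of them. PECAM1, an endothelial adhesion molecule that leukocytes also carry, had the brightest probe of these (12.39, 12.26, and 11.94). KRT5, a keratin of basal keratinocytes, measured 5.32, 4.15, and 5.68 and was below background on the IMQ array, which makes its IMQ+DMD level at least 2.16-fold higher than IMQ, or at least 1.36-fold with normexp. Because each array read RNA from a whole culture, fewer cells of a type and less RNA per cell cannot be told apart.

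Several members were read by probes whose place on the transcript matters for what follows, so these 60-base probes are shown as the array file gives them. HSPE1 had 1 probe across a splice junction (hg19 chr2:198367803-198367942, plus strand, 60 bases with 80 bases of intron between them) and 1 probe that runs from the same exon into the intron (chr2:198367823-198367882). They share 31 bases, and the capitals mark the bases after this shared run.
HSPE1 spliced probe: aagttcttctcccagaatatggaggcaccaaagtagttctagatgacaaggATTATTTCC
HSPE1 exon-intron probe: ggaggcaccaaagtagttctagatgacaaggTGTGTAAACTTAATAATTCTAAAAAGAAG

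HSPB1 had probes at the 3′ end of its transcript and before its start. Its brightest probe (hg19 chr7:75933451-75933510, plus strand) covers the end of the coding sequence, with the stop codon in capitals, and a further probe lies 99 bases downstream in the same direction. The third probe (chr7:75931924-75931983) lies 1527 bases upstream of the brightest. Its sequence matched bases -66 to -7 before the HSPB1 start in the RefSeq promoter table (GRCh38.p14), so this probe sits outside the transcript that RefSeq starts there.
HSPB1 probe at the stop codon: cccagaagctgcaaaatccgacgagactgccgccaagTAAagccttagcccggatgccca
HSPB1 upstream probe: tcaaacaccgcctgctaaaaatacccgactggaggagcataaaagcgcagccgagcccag

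HSPA1A and HSPA1B encode nearly the same inducible HSP70 protein from neighboring genes on chromosome 6, and a reader may ask whether the array told them apart. The first 30 bases of each probe are given, for HSPA1A from hg19 chr6:31785491-31785520 and for HSPA1B from chr6:31797870-31797899, both on the plus strand. The longest run that the full probes share was 7 bases. The probes were compared only with each other and not with the transcript of the other gene. Whether each probe reads its own gene alone was therefore not tested.
HSPA1A probe, first bases: gagcttcaagactttgcatttcctagtatt
HSPA1B probe, first bases: gtttcgttccctttaaatgaatcaacactg

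HSPA1A was the only member printed on many spots of each array. Before normalization, its 10 spots spanned a processed signal of 2777 to 3113 on the Ctrl array (median 2991), 2632 to 2929 on the IMQ array (median 2750), and 3463 to 3844 on the IMQ+DMD array (median 3639). Every spot on the IMQ+DMD array was brighter than every spot on the other arrays, while the spots on Ctrl and IMQ overlapped and had the higher median on Ctrl. These signals are not corrected for the brightness of the array. The 75th percentile of processed signal over the array was 472 on Ctrl, 346 on IMQ, and 361 on IMQ+DMD. The SD of the log2 signal over these spots was 0.05 on Ctrl, 0.04 on IMQ, and 0.04 on IMQ+DMD, where 1 of the 10 spots was marked as an outlier by the scanner software and left out of the SD. These spots repeat the measurement of 1 RNA sample and say nothing about the spread between cultures.

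**Figure D1:**
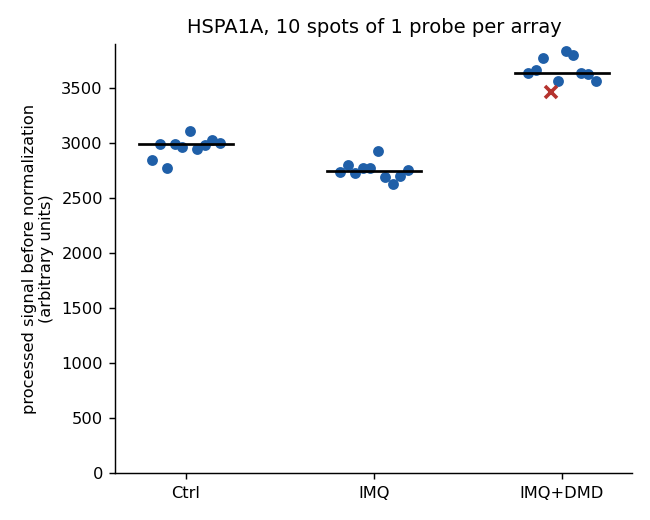
Processed signal of HSPA1A before normalization between arrays (y axis, arbitrary units from 0) for the 10 spots of its probe on each of the 3 arrays (x axis); each point is a spot, the black bar is the median, and the cross is the spot marked as an outlier. The IMQ+DMD spots start at 3463, above the brightest spot of Ctrl (3113) and of IMQ (2929).

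In the quantile-normalized values, HSPA1A stood at log2 11.27 on Ctrl, 11.53 on IMQ, and 12.06 on IMQ+DMD. It was 1.44-fold higher on IMQ+DMD than on IMQ (0.53 on the log2 scale, standard error over its repeated spots 0.02). That was the largest difference of any member in that comparison and above that of 91.7% of all genes compared. The error of HSPA1A is that of a mean of spots, whereas the SD given for other members is that of single spots, so these are not alike. HSPA1B stood at 11.17, 11.89, and 12.04. Its larger step was the one from Ctrl to IMQ (0.73, 1.66-fold, SD from repeated spots 0.06), and the step to IMQ+DMD was 0.15. Hence the probes of the paralogs reached a similar distance from Ctrl, 0.79 for HSPA1A and 0.88 for HSPA1B, by different steps. The IMQ step of HSPA1A minus that of HSPA1B was -0.46 with an SD from repeated spots of 0.07, and its DMD step was larger by 0.38 (SD 0.07). The SD of each gap combines the standard error of HSPA1A with the single-spot SD of HSPA1B. A shift of a whole array cancels in these gaps. The sign of the IMQ step of HSPA1A alone depended on the scaling, since it was -0.11 without normalization between arrays and -0.26 after scaling to spike-in probes, whereas HSPA1B was above 0 under all 8 alternatives (0.20 to 0.80).

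HSPA8, the constitutive HSP70 that also uncoats clathrin vesicles, measured 15.19 on Ctrl, 14.93 on IMQ, and 15.19 on IMQ+DMD. Its log2 difference was -0.25 between IMQ and Ctrl, and it was 0.26 higher on IMQ+DMD than on IMQ, so that the IMQ+DMD and Ctrl arrays differed by 0.01 with an SD from repeated spots of 0.05. The difference between IMQ+DMD and IMQ kept its sign under all 8 alternatives, from 0.09 to 0.33. Without normalization between arrays, however, the difference between IMQ+DMD and Ctrl was -0.43.

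HSPB1, the small heat shock protein HSP27 that binds unfolded proteins and actin, was the single member that passed 2-fold. The probe at the stop codon measured 16.26 on Ctrl, 15.15 on IMQ, and 15.33 on IMQ+DMD. HSPB1 was 2.15-fold lower on IMQ than on Ctrl (-1.11, SD from repeated spots 0.05), and only 2.75% of all genes compared lay below it. The downstream probe measured 16.19, 15.04, and 15.19 and gave -1.15 (2.22-fold). On the IMQ+DMD array both stayed low, at -0.93 and -0.997 against Ctrl, the latter just short of 2-fold, and they were 0.18 and 0.16 above IMQ, differences that turned slightly negative with the 75th percentile scaling (-0.02 and -0.03). Both probes were below Ctrl in the IMQ comparison under all 8 alternatives, with differences from -0.90 to -1.55, and scaling to the 75th percentile left both just under 2-fold (-0.90 and -0.95).

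The upstream HSPB1 probe measured 7.68 on Ctrl, 7.19 on IMQ, and 7.23 on IMQ+DMD. It was lower after IMQ too, with a difference of -0.49 and an SD from repeated spots of 0.14. The difference of the brightest probe minus that of the upstream probe was -0.62 (SD 0.15) for IMQ against Ctrl and 0.14 (SD 0.15) for IMQ+DMD against IMQ. These gaps depended on the scaling. With the 75th percentile, without normalization, and with spike-in scaling they were -0.31 and -0.21, and the difference of the upstream probe after IMQ became -1.04 without normalization and -1.19 with spike-in scaling. The brightest probe was thus farther below Ctrl than the upstream probe after IMQ under all 8 alternatives, while the sign of the gap between IMQ+DMD and IMQ was not settled.

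HSP90AA1, the inducible cytosolic HSP90, gave 3 probes that were apart in size. The brightest, which has no open reading frame through its 60 bases and lies at the 3′ end (hg19 chr14:102547395-102547454, minus strand), measured 16.69, 16.74, and 16.93. The other probes have an open frame and lie upstream on the transcript, at chr14:102549453-102549512 (14.75, 15.38, and 15.48) and chr14:102550163-102550222 (13.03, 13.46, and 13.68). After IMQ the brightest probe was 0.04 higher, against 0.63 and 0.44 for the others, and the gap of the brightest to the first of these, -0.59, had an SD from repeated spots of 0.08. For IMQ+DMD against IMQ the probes were close together, at 0.19, 0.10, and 0.22. A gene value taken from the brightest probe therefore gave HSP90AA1 an IMQ difference near 0, and scaling to spike-in probes turned that value to -0.36. The probe with the largest IMQ difference was above 0 under all 8 alternatives (0.17 to 0.77).

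HSPH1, the HSP110 that serves HSP70 as an exchange factor, was read alike by both of its probes. The brighter one measured 14.07 on Ctrl, 14.23 on IMQ, and 14.43 on IMQ+DMD, and the other 12.57, 12.76, and 12.99. They gave 0.16 and 0.19 between IMQ and Ctrl, then 0.20 and 0.23 between IMQ+DMD and IMQ, with gaps (-0.02 and -0.04) inside the SD of 0.09 from repeated spots. The spots of the brighter probe were among the least even of their brightness on each array (98.7, 99.5, and 97.1 percentile of pixel spread), whereas those of the other probe were even (16.6, 25.1, and 14.8). Without normalization between arrays the IMQ differences of both turned negative (-0.14 and -0.17), as they did with spike-in scaling.

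HSPD1 (HSP60) and HSPE1 (HSP10) form the mitochondrial chaperonin and start 105 bases apart on opposite strands in RefSeq. HSPD1 measured 16.05, 16.09, and 16.17. It was 0.04 higher on IMQ than on Ctrl, within its SD from repeated spots of 0.06, and its difference of 0.08 between IMQ+DMD and IMQ was the smallest of the 10 genes. HSPE1 measured 15.59, 15.35, and 15.44 with the spliced probe and 14.63, 14.38, and 14.45 with the exon-intron probe shown above. The spliced and the exon-intron probe gave like values, -0.24 and -0.26 between IMQ and Ctrl, and 0.09 and 0.08 between IMQ+DMD and IMQ. The exon-intron probe shares 31 bases with the spliced one, and the array annotation lists it under a different transcript. Whether it read unspliced or spliced RNA was not tested. In the quantile-normalized data HSPD1 ended 0.11 above Ctrl and the HSPE1 probes at -0.15 and -0.18, and in the comparison with IMQ the sign of both turned under scaling to the 75th percentile (-0.10 for HSPD1 and -0.08 for the spliced HSPE1 probe) and without normalization.

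Of the co-chaperones, DNAJB1 (HSP40), a J-domain protein that hands substrates to HSP70, measured 11.57 on Ctrl, 11.56 on IMQ, and 11.69 on IMQ+DMD. Its differences were -0.01 for IMQ against Ctrl, well inside the SD of 0.06 from repeated spots, and 0.14 for IMQ+DMD against IMQ. BAG3, an exchange factor that links HSP70 to HSPB1-family proteins and to autophagy, measured 9.39, 9.82, and 10.12. It was higher at each step, by 0.43 and 0.30, and ended 1.66-fold above Ctrl (0.73, SD 0.07), although the first step was -0.12 with spike-in scaling. Between IMQ+DMD and IMQ, BAG3 had the second largest difference among the members and was above 0 under all 8 alternatives, from 0.18 to 0.42.

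**Figure D2:**
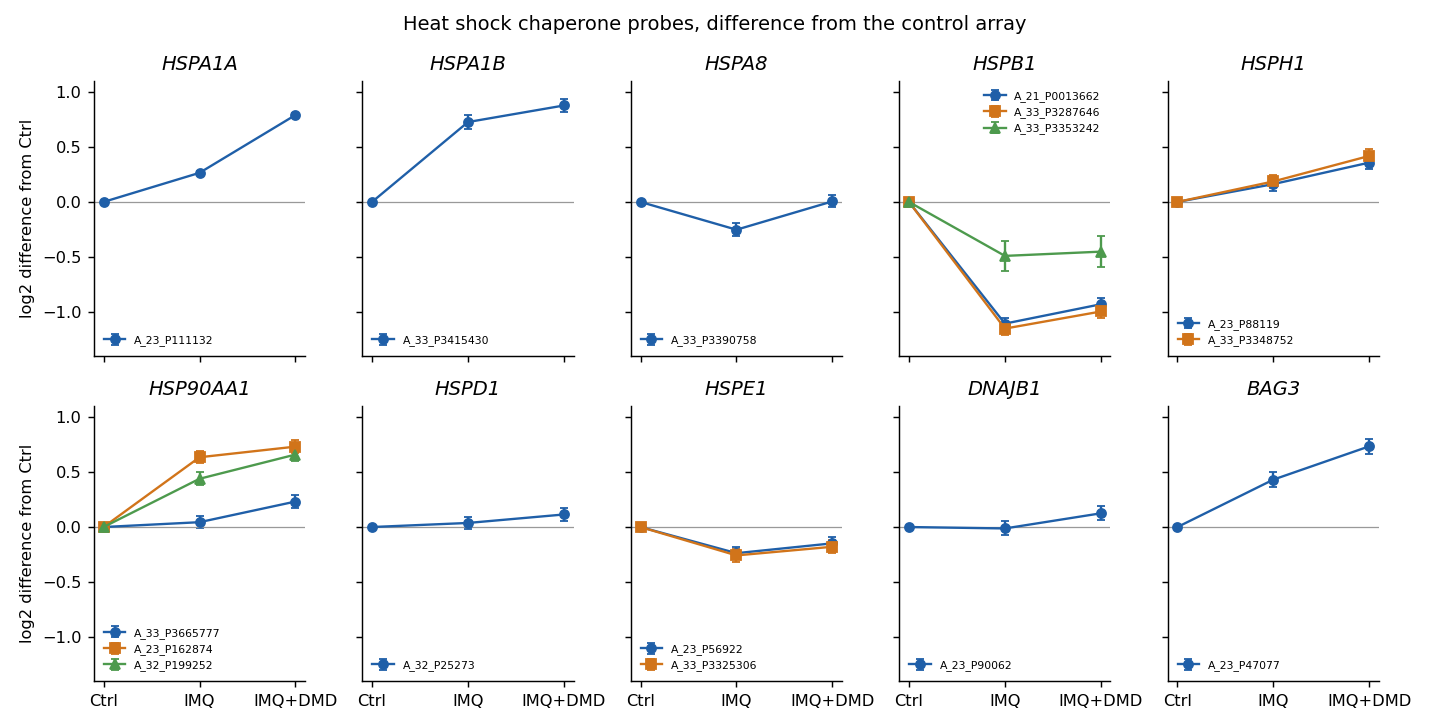
Log2 difference from the Ctrl array (y axis) on the Ctrl, IMQ, and IMQ+DMD arrays (x axis), with 1 panel per gene and 1 line per probe. Bars are 1 SD expected from repeated spots within an array, or for HSPA1A the standard error over its own spots, not from replicate cultures. HSPB1 dropped to -1.11 and -1.15 with its transcript-end probes and stayed low. The probes of HSPA1A and HSPA1B ended near each other by different steps, and the HSP90AA1 probes separated after IMQ (0.04, 0.44, and 0.63). In these quantile-normalized values every line goes up from IMQ to IMQ+DMD, which under scaling to the 75th percentile held for 8 of the 16.

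For the question of what IMQ did to these genes, the members were compared between the IMQ and Ctrl arrays. No member (0 of 10) was at least 2-fold higher, against 4.17% of all 31849 genes compared, and HSPB1 (1 of 10) was at least 2-fold lower, against 3.59%. By sign alone, 6 of 10 were higher, against 47.8% of all genes. Their median difference was 0.04, beside -0.02 for all genes. The differences ran from -1.11 for HSPB1 to 0.73 for HSPA1B, with HSPA8 and HSPE1 also lower by more than 2 SD of repeated spots. The level of the median depended on the scaling. Spike-in scaling, under which the median of all genes dropped to -0.66, gave -0.37 and left HSPA1B as the only member above 0, beside 8.61% of all genes. Compared with the genes at least as bright as the dimmest member, 6 of 10 members lay above their median with that scaling and in the deposited values, and the median of the members was 0.14 and 0.05 higher. The calls over all genes, 1329 higher and 1143 lower by 2-fold, became 466 and 7575 with that scaling and 579 and 5155 without normalization.

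For the question of what DMD added, the members were compared between IMQ+DMD and IMQ. In the quantile-normalized values all 10 genes and all 16 probes were higher on IMQ+DMD, against 50.8% of all 31698 genes compared and 51.7% of the 8726 genes that were at least as bright as the dimmest member (mean log2 9.78). The probe differences ran from 0.04 to 0.53, and 11 of 16 were larger than 2 SD of repeated spots. None reached 2-fold (0 of 10 higher, against 1.19% of all genes, and 0 of 10 lower, against 1.25%). The gene median was 0.18, beside 0.00 for all genes. The markers of other cell types were higher too, 9 of 11 with a median of 0.24 that stayed above 0 under all 9 alternatives (0.13 to 0.65). These were mostly dim probes, with PECAM1, the brightest, at -0.33, and their part in the result was not tested. The 12 housekeeping genes in the same comparison lay between -0.10 and 0.12, and 8 of 10 members lay above the highest of them. HSPD1 and HSPE1 were the exceptions.

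The sign of these small differences was not the same under every scaling. After scaling to the 75th percentile only 5 of 10 members were above 0, beside 50.4% of all genes, and HSPA1B, HSPB1, HSPD1, HSPE1, and DNAJB1 lay slightly below it. Without normalization 8 of 10 were above 0, against 57.4% of all genes, and after scaling to the median of the spike-in probes 10 of 10, where 83.7% of all genes were above 0 too. Over all genes the 2-fold calls, 376 higher and 396 lower, were 1058 and 213 with the 75th percentile, 1370 and 180 where no normalization was applied, and 2573 and 112 under spike-in scaling. The 75th percentile, spike-in scaling, and the values without normalization differ by 1 constant per array, so a comparison of members with other genes is the same under these scalings by construction. It could differ only between them and the quantile-type normalizations. The median of the members exceeded that of the genes at least as bright as the dimmest member by 0.18 in the deposited values, 0.15 in the new quantile normalization, 0.17 with normexp, and 0.16 in the values scaled by a constant, and all 10 members lay above that median each time. Of the 10 members, 8 lay above the highest housekeeping gene, or 7 with normexp. This comparison with bright genes was added after the values had been seen.

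**Figure D3:**
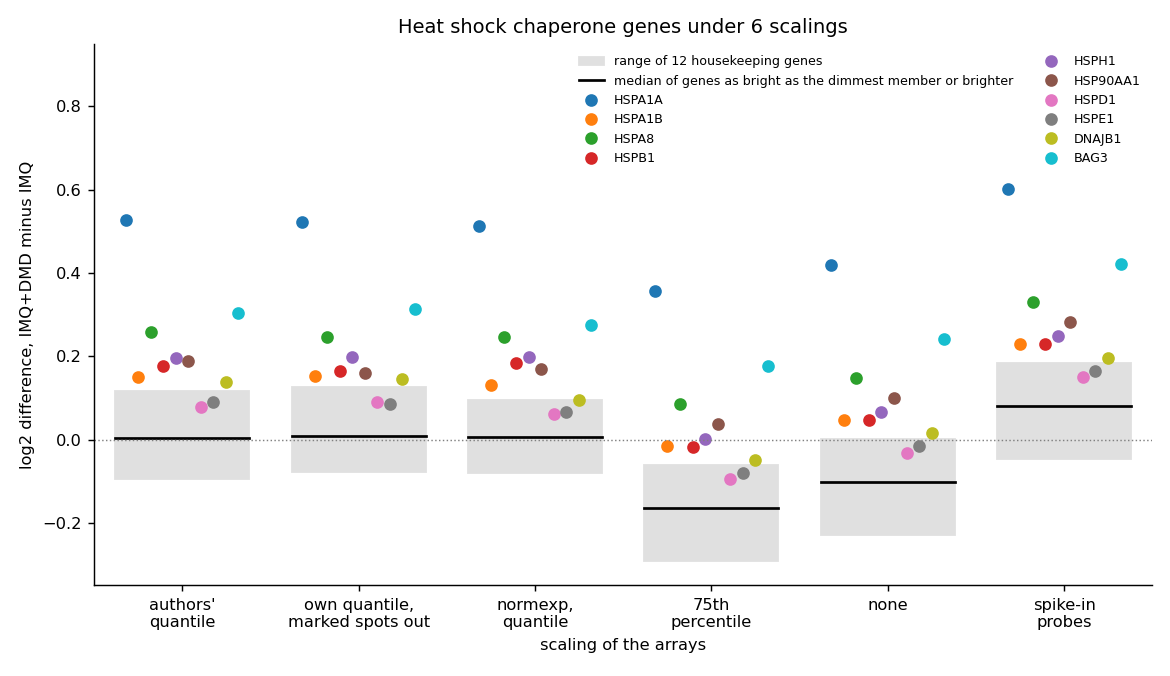
Log2 difference between IMQ+DMD and IMQ (y axis) of the brightest probe of each of the 10 genes (colored points) under 6 scalings of the arrays (x axis); the gray box is the range of 12 housekeeping genes and the black bar the median of the genes at least as bright as the dimmest member. All 10 genes lie above 0 under the 3 quantile scalings and spike-in scaling, 8 of 10 without normalization, and 5 of 10 with the 75th percentile, and the points keep their places relative to the black bar where scalings differ only by a constant per array (75th percentile, none, and spike-in).

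The IMQ+DMD and Ctrl arrays were compared to ask where the members ended. No member was 2-fold higher (0 of 10, against 3.04% of all 33707 genes compared) or 2-fold lower (0 of 10, against 4.83%). By any amount 8 of 10 were higher, against 54.8% of all genes, and HSPB1 (-0.93) and HSPE1 (-0.15) were lower. HSPB1 passed 2-fold without normalization (-1.30) and with spike-in scaling (-1.27), where 10.2% and 9.39% of all genes were 2-fold lower. In the same comparison the macrophage markers had a median of -0.61, and their part in the result was not tested. HSPA1B (0.88), HSPA1A (0.79), and BAG3 (0.73) were the farthest above Ctrl, and these were above 0 under all 8 alternatives. The median was 0.18, beside 0.05 for all genes, and became -0.18 without normalization and -0.15 with spike-in scaling, where 3 of 10 members were above 0 under either, beside 21.0% and 23.3% of all genes. These scalings move all genes of an array alike, and beside the genes at least as bright as the dimmest member 8 of 10 members lay above their median under either, with the median of the members 0.25 higher, against 7 of 10 and 0.16 in the deposited values. The 2-fold calls over all genes, 1026 higher and 1627 lower, shifted to 512 and 3401 where no normalization was applied, and to 547 and 3149 under spike-in scaling. This comparison shares its arrays with the others and adds no independent measurement.

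The transcription factors that act on these genes were measured on the same arrays. HSF1, the main heat shock factor, stood at 15.11, 15.31, and 15.43, which was 0.20 higher after IMQ and 0.12 higher again on IMQ+DMD in the quantile-normalized values, and HSBP1, which binds the HSF1 trimer, stood at 13.60, 13.76, and 13.87. Of 5 compared genes in this group only HSF5, a little studied factor of the same family, passed 2-fold. HSF5 was above background on the IMQ array alone (6.18), at least 4.41-fold above Ctrl and at least 4.30-fold above IMQ+DMD, on a single spot whose pixels on the IMQ array were uneven (93.5 percentile). These limits depended on the scaling. That against Ctrl was 2.87-fold without normalization, 2.59-fold with spike-in scaling, and 1.82-fold with normexp, and that against IMQ+DMD was 3.30-fold, 2.91-fold, and 1.81-fold, so that normexp left both under 2-fold. The median of the 5 genes was 0.16 after IMQ, or -0.43 with spike-in scaling, and 0.05 between IMQ+DMD and IMQ, or -0.09 with the 75th percentile scaling.

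Of the other HSP70 and HSP110 genes, all 8 compared were higher on IMQ+DMD than on IMQ, by 0.06 to 0.24, against 50.8% of all genes. With the 75th percentile scaling HSPA13 turned to -0.10 and HSPA2 was 0.44, and the signs of the rest are not given here. None of the 8 passed 2-fold in the quantile-normalized values. Their median of 0.09 kept its sign under all 9 alternatives, from 0.08 to 0.38. In the quantile-normalized values it lay below the 0.18 of the members. It lay above the median of the members with the 75th percentile (0.14 against -0.007) and with spike-in scaling (0.38 against 0.24). HSPA13, a microsomal HSP70 relative, had the largest difference from Ctrl after IMQ (10.38, 11.24, and 11.30, a difference of 0.85), and HSPA2, known from spermatogenesis, the lowest (6.91, 6.14, and 6.34, a difference of -0.77), which became -1.37 without normalization and -1.52 with spike-in scaling, past 2-fold. HSPA6, a strictly stress-inducible HSP70, measured 7.43, 7.32, and 7.50.

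J-domain co-chaperones were the group with the highest median after IMQ, 0.27 for 16 genes with 13 of 16 higher, although the median was -0.27 with spike-in scaling. DNAJB5 was 2.03-fold higher on IMQ than on Ctrl (10.94, 11.96, and 12.23), and its second probe gave 1.06 where the first gave 1.02. Without normalization DNAJB5 was 1.55-fold higher, with spike-in scaling 1.40-fold, and with normexp 1.97-fold, so that it passed 2-fold under none of these. On IMQ+DMD, DNAJB5 was 2.44-fold above Ctrl, or 2.32-fold with normexp, 1.72-fold without normalization, and 1.76-fold with spike-in scaling. DNAJB4 (6.23, 7.20, and 7.63) was 2.64-fold above Ctrl on IMQ+DMD, or 1.84-fold with normexp, on a single dim spot whose pixels on that array were uneven (97.9 percentile). DNAJC9, a J-domain protein that binds histones, was the lowest (12.29, 11.31, and 11.32), 1.97-fold below Ctrl after IMQ and 1.96-fold on IMQ+DMD. DNAJB4 and DNAJB5, relatives of DNAJB1, were above Ctrl where DNAJB1 differed by -0.01 after IMQ and 0.12 on IMQ+DMD. Between IMQ+DMD and IMQ, 10 of 16 genes were higher, with a median of 0.03 that became -0.12 with the 75th percentile scaling.

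Among the 9 other small heat shock proteins compared, HSPB3, a muscle-type relative of HSPB1, went opposite to it. HSPB3 measured 12.98 on Ctrl, 14.50 on IMQ, and 14.99 on IMQ+DMD, which was 2.87-fold and 4.04-fold above Ctrl, on 1 probe with 1 spot, whose pixels on the IMQ+DMD array were uneven (98.5 percentile). HSPB7, a small heat shock protein of heart muscle, was the lowest of the group and lay below Ctrl like HSPB1 (10.57, 9.71, and 9.71, a difference of -0.86 on both treated arrays). HSPB3 was above Ctrl under all 9 alternatives. The median of this group was 0.04 after IMQ, or -0.76 with spike-in scaling, and CRYAB, alpha-B crystallin, stayed between 7.19 and 7.43.

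HSP90 and its co-chaperones, 12 genes, had a median of 0.08 both between IMQ and Ctrl and between IMQ+DMD and IMQ, with 8 of 12 higher each time, though with spike-in scaling the first became -0.43. HSP90AB1, the constitutive HSP90, measured 14.50, 14.55, and 14.71, while the largest difference was that of PPID, a cyclophilin of the HSP90 complex (0.55 after IMQ), and FKBP5, an immunophilin of the same complex, was lowest (-0.33 on IMQ+DMD against Ctrl). The BAG proteins and other HSP70 partners hold relatives of BAG3 together with HSPBP1, STUB1, and ST13. Their median was -0.14 after IMQ and -0.22 on IMQ+DMD against Ctrl, beside -0.02 and 0.05 for all genes, with 2 of 8 higher each time. BAG2, which inhibits HSP70-linked ubiquitination, was lowest at -0.56, or -1.11 and past 2-fold with spike-in scaling, where the median of the group was -0.63. ST13, the HSP70-interacting protein Hip, was highest (13.07, 13.43, and 13.63, a difference of 0.37, or -0.12 with spike-in scaling), but its 7 probes ranged from 0.03 to 0.49.

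In the TRiC chaperonin and prefoldin group (14 genes, median 0.05 after IMQ and 0.04 for IMQ+DMD against IMQ), PFDN1 had the largest difference after IMQ (0.38, or -0.11 with spike-in scaling). The prefoldin subunit PFDN6 measured 10.59, 10.85, and 9.94, a difference of -0.91 for IMQ+DMD against IMQ, or -1.04 and past 2-fold with the 75th percentile scaling. Against Ctrl, PFDN6 was 1.56-fold lower on IMQ+DMD, or 2.15-fold without normalization and 2.10-fold with spike-in scaling. The mitochondrial chaperones and proteases (12 genes, medians 0.02 and 0.01) included TRAP1, the mitochondrial HSP90, at -0.64 after IMQ (-1.05 without normalization and -1.20 with spike-in scaling, past 2-fold), and YME1L1, a protease of the inner membrane, at 0.36, or -0.14 with spike-in scaling. With that scaling the medians after IMQ were -0.45 and -0.51. Of 15 endoplasmic reticulum chaperones, 11 were higher on IMQ+DMD than on IMQ, with a median of 0.08, and SDF2L1, a partner of the HSP70 of that compartment, was the exception in size. SDF2L1 measured 15.25, 14.83, and 13.74, and it was 2.13-fold lower on IMQ+DMD than on IMQ and lower under all 9 alternatives. The medians of these groups between IMQ+DMD and IMQ turned negative with the 75th percentile scaling (-0.14, -0.16, and -0.10), as did that of the HSP90 group (-0.09). Housekeeping genes had medians of -0.10 and -0.00, the former running from -0.49 with spike-in scaling to 0.10 with the 75th percentile. TFRC, the transferrin receptor, was highest after IMQ (0.96, or 1.08 and past 2-fold with the 75th percentile, and 0.49 with spike-in scaling). HPRT1, a purine salvage enzyme, was lowest (-0.53, or -1.03 with spike-in scaling).

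**Figure D4:**
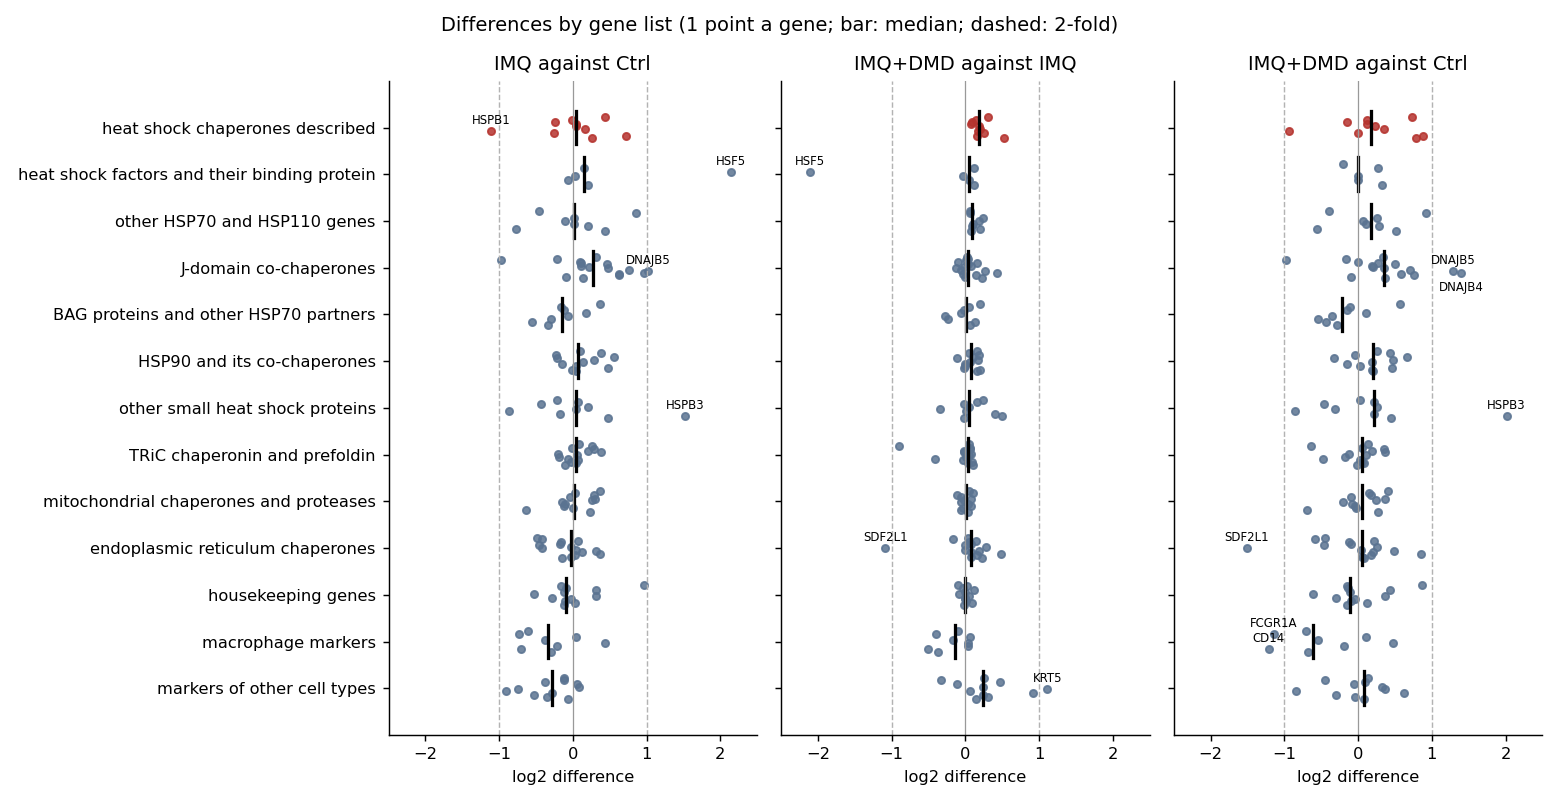
Log2 differences of each compared gene (points) in the 10 heat shock chaperones (red) and 12 other gene lists (blue), for IMQ against Ctrl, IMQ+DMD against IMQ, and IMQ+DMD against Ctrl (panels, quantile-normalized values; the x axis is the log2 difference); black bars are medians, dashed lines 2-fold, and genes past 2-fold are named, with HSF5 and KRT5 drawn at the limit set by background. The red points lie between 0.08 and 0.53 in the middle panel, where housekeeping genes lie between -0.10 and 0.12; with the 75th percentile scaling 5 of the 10 fall below 0.

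The promoters were read for the heat shock element, the inverted repeat of GAA and TTC that HSF1 trimers bind. RefSeq (GRCh38.p14) gave 14 promoters for the 10 members, each from 250 bases before to 50 bases after the start. A pair of units in either order, GAANNTTC or TTCNNGAA, was found in 13.5% of all 35116 promoters and in 8 of the 14, and by gene at 16.2% of all genes and 7 of 10 members. A run of 3 units, GAANNTTCNNGAA or its reverse complement TTCNNGAANNTTC, was found in 0.490% of all promoters and in 3 of the 14, and by gene at 0.608% of all genes and 3 of 10 members, HSPA8, HSP90AA1, and HSPD1. HSPH1, HSPE1, and BAG3 had no match to these letters in the window, and nothing follows from this about the factor. Both strands were covered, since each pair is its own reverse complement, and each run of 3 units also counts as a match of both pairs.

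Matches of 5 members are shown to set them beside the values above, with 15 bases on each side and the matched units in capitals. The HSP90AA1 promoter is that of the downstream of its 2 RefSeq starts, and a further pair falls inside the bases shown. They lie at GRCh38.p14 chr6:31815422-31815459 (plus strand) for HSPA1A, chr6:31827618-31827655 (plus) for HSPA1B, chr11:123062164-123062206 (minus) for HSPA8, chr7:76302476-76302513 (plus) for HSPB1, and chr14:102087105-102087147 (minus) for HSP90AA1.
HSPA1A promoter: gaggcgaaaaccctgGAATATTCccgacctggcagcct
HSPA1B promoter: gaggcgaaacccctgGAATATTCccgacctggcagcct
HSPA8 promoter: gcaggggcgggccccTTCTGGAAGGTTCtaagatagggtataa
HSPB1 promoter: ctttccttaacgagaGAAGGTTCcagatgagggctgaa
HSP90AA1 promoter: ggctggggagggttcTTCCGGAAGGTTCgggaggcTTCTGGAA

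HSPA1A and HSPA1B carried the same pair of units, at -106 and -105 from the start, inside windows that were 92.6% identical over 299 aligned bases. Their differences from Ctrl after IMQ were 0.26 and 0.73. HSPB1 carried a pair at -182 and differed from Ctrl by -1.11 after IMQ, and HSPA8 carried a run of 3 units at -55 and a further one at -230 and differed from Ctrl by -0.25 after IMQ. BAG3, with no match in its window, was 0.43 higher. HSPE1 and HSPH1 also had no match and differed by -0.24 and 0.16 with their brightest probes. Of the remaining members with a match, HSP90AA1 differed by 0.04 to 0.63 over its probes, HSPD1 by 0.04, and DNAJB1 by -0.01. Whether these letters had a part in the values was not tested.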

How the data were processed

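RNA of 3 THP-1 cultures was measured on 1 one-color (Cy3) Agilent array each, all on 1 slide. The authors deposited scanner output (Feature Extraction 10.5.1.1, annotation on hg19) and a table of raw and quantile-normalized probe intensity. Log2 of the normalized intensity was used. No column of values per sample was left unused (0), and the enrichment tests that the submitters mention were not used. A probe counted as measured on an array where most of its spots were marked well above background, which held for 72.0%, 66.6%, and 71.9% of probes on Ctrl, IMQ, and IMQ+DMD. A pair of arrays was compared where the brighter was above background, with a dim value raised to the lowest measured value of its array (log2 4.04, 4.57, and 4.08), which makes its fold a lower limit. The brightest probe by mean log2 value stood for a gene, and a gene counted as changed at 2-fold. There was no test, and precision is limited by having 1 array per condition. The noise within an array was the SD of 300 probes with 10 spots each, taken at the brightness of the probe (0.10 between log2 7 and 8, 0.04 between 14 and 15). HSPA1A has repeated spots of its own, and the standard error over them was used instead, which is smaller than an SD.

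The members, the 12 gene lists, and the comparisons were chosen with earlier results of these data known. Each list gene past 2-fold was named (up to 4 per list), otherwise the highest and the lowest, while HSF1, HSBP1, HSPA6, HSP90AB1, CRYAB, HSPB7, DNAJC9, CSF1R, SPI1, EPCAM, and PECAM1 were added for their roles or sizes after their values had been seen. Scaling to the mean of the spike-in probes, the comparison with equally bright genes, and the gaps between probes under each scaling were also added after seeing the data. The alternatives replaced the normalization by the 75th percentile of each array, by none, by the median of 10 spike-in probes (35 spots each), or by a new quantile normalization of the scanner signal without outlier-marked spots, or used normexp correction with an offset of 50 (limma 3.58.1, R 4.3.3), other filters on dim probes, 1.5-fold and 4-fold thresholds, and the median over probes. Later steps used Python 3.11.15, numpy 2.4.6, pandas 2.3.3, and matplotlib 3.10.9, and the comparison was tested on simulated data. Probe sequences are from the array file, and promoters from RefSeq. HSPA7, CD68, and LYZ have no probe under these names and were not analysed here.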

Additional observations from a re-analysis of the deposited data

How the results depend on the processing

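With 1 array per condition, no alternative replaces a replicate. No paired analysis was possible because each condition has 1 sample. For IMQ against Ctrl, the median of the members (0.04) was 0.23 with the 75th percentile, -0.22 without normalization, -0.37 with spike-in scaling, and 0.11 with the median over probes. The members above 0 were then 2 without normalization and 1 with spike-in scaling, instead of 6, as 12.9% and 8.61% of all genes were. HSPB1 was the 1 member at least 2-fold lower, and 0 were with the 75th percentile or a 4-fold threshold; at 1.5-fold, 1 of 10 members was higher, beside 10.7% of all genes. For IMQ+DMD against IMQ, the median (0.18) was -0.00706 with the 75th percentile, where 5 members and 50.4% of all genes were above 0, and 0.0566 without normalization. For IMQ+DMD against Ctrl, the median (0.18) was -0.18 without normalization, -0.15 with spike-in scaling, and 0.26 with the median over probes. The members above 0 were 3 without normalization and 3 with spike-in scaling instead of 8 (21.0% and 23.3% of all genes). HSPB1 was then the 1 member 2-fold lower under both (10.2% and 9.39%). At 1.5-fold, 3 of 10 members were higher and 1 lower, beside 9.76% and 11.5% of all genes. Spike-in scaling rests on the median of 10 probes, 8 of them above background on all arrays. Their mean, added after seeing the data, gave -0.0791, -0.00250, and -0.104 for the 3 medians, with 5 members above 0 for IMQ+DMD against IMQ (50.8% of all genes), 4 for IMQ+DMD against Ctrl (26.9%), and 1 member 2-fold lower in the latter (8.55%). Over all alternatives, 326 of 384 values of member probes kept their direction. The other filters on dim probes are among the 8 alternatives of a member probe but could not change its values. This is because all 16 member probes were well above background on every array. The values that passed 2-fold were those of the HSPB1 probes at the transcript end after IMQ, and these did not change sign. Of the values of named list genes 501 of 527 did, and of the list medians 242 of 324. Normexp correction left fewer 2-fold calls over all genes (in the order of the comparisons above, 589 higher and 611 lower, then 22 and 31, then 527 and 816), and no filter gave more (2701 and 2823, 1843 and 1515, 2240 and 2752). The cause of these shifts was not tested.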
